A study of Mus musculus with 6 samples.

Results

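The transcriptome described here is that of long-bone marrow in wild-type mice aged 3 weeks. Its libraries were chosen by the genotype label alone, which gave 3 of the 6 libraries of the series, and no value of the other 3 libraries was used. The mice were of mixed 129/C57BL/6 strain, their mean body weight was 12.3 g, and the labels name no treatment and no sex. RNA was taken from the marrow of the tibia and the femur, and each library is one wild-type replicate. The series as a whole concerns Cbx2, a chromodomain protein of Polycomb repressive complex 1, and the differentiation of osteoblasts and adipocytes in long bones. No genotypes are compared here, so the values below are descriptions of one group, with the SD over n = 3 libraries and no p-value.

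Marrow of a young mouse is the main site of blood formation. Red cell precursors fill themselves with haemoglobin, and neutrophil precursors store antimicrobial proteins in granules that are made in a fixed order as the cells mature. Around these cells lie a smaller number of stromal, vascular and bone cells, among them osteoblasts, which secrete the collagen-rich matrix that later mineralises. In bulk tissue each transcript's level depends on how many cells carry it and on how much of it a cell holds, and fewer cells of a type and less RNA per cell cannot be told apart.

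Levels are given as FPKM, which corrects read fragments for transcript length and library size, so genes of different length can be set side by side within a library. The summed FPKM was 718714 in replicate 1, 662832 in replicate 2 and 699851 in replicate 3, and a share below is a percentage of that sum. Of 22838 genes in the table, 16140 to 16560 had a value above 0 in a library and 11373 reached 1 FPKM in all 3 libraries. A further 833 genes reached 1 FPKM in 1 or 2 libraries, and 5512 were listed at 0 in all 3. Total read numbers are not part of the values used here. The depth estimated from values under 0.15 FPKM, which step by whole reads where reads are placed uniquely, put that of replicate 2 at 0.914 and that of replicate 3 at 1.22 times the depth of replicate 1. This is approximate.

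Few genes held much of the summed signal. The most abundant gene alone took 10.3% ± 1.95 of the summed FPKM, the 10 most abundant 23.7% ± 1.61, the 100 most abundant 49.9% ± 0.873 and the 1000 most abundant 76.8% ± 0.616. The number of genes that together held 50% of the signal was 96, 108 and 99 in replicates 1, 2 and 3. The upper ranks were shared: the same 5 genes led in every library, 24 genes stood among the 30 highest in all 3 libraries, and 94 stood among the 100 highest in all 3. Of the 30 genes with the highest mean, 14 encode cytosolic ribosomal proteins, 3 haemoglobin chains, 4 neutrophil proteins (S100a9, S100a8, Camp and Ngp), 2 type I collagen chains (Col1a1 and Col1a2), 2 the ferritin chains Ftl1 and Fth1, and 2 the translation-associated proteins Eef1a1 and Tpt1. The others were Gpx1, a glutathione peroxidase, Tmsb4x, the actin-binding thymosin, and Rps27rt, a copy of the ribosomal gene Rps27 that is described further down.

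**Figure D1:**
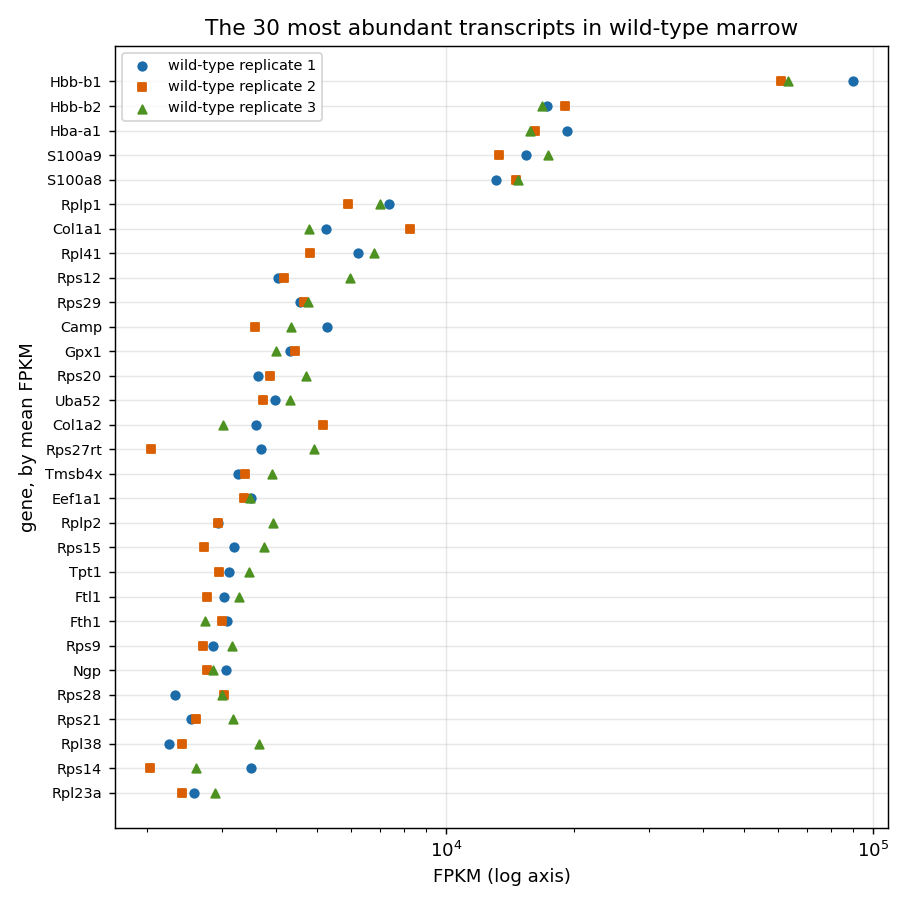
FPKM (log axis) of the 30 genes with the highest mean, 1 point per wild-type replicate. Hbb-b1 stands apart at 61102 to 89984, and the widest gaps between replicates among the others are those of Rps27rt, Rps14, Col1a1 and Col1a2.

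Red cell transcripts formed the largest lineage share. The haemoglobin chains took 17.8%, 14.7% and 13.9% of the summed FPKM in replicates 1, 2 and 3 (mean 15.4% ± 2.05), so replicate 1 stood above the other two. Hbb-b1, the major adult beta chain in the table's naming, was at 89984, 61102 and 63429 FPKM, and it accounted for most of the difference, since Hbb-b2 was at 17256, 19063 and 16807 and the alpha chain Hba-a1 at 19187, 16159 and 15739. The embryonic chains Hba-x, Hbb-y and Hbb-bh1 were near the floor, at means of 2.50 ± 0.200, 1.22 ± 0.590 and 1.16 ± 0.492 FPKM.

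Adult alpha-chain and beta-chain values cannot be read gene by gene. The table lists Hbb-b1 and Hbb-bs at one and the same position, chr7:103826522-103827929, with Hbb-bs at a mean of 1176 ± 88.1 FPKM. It also lists Hba-a1 and Hba-a2 together at chr11:32283671-32284493, with Hba-a2 at 0.163 to 0.174 FPKM. In the reference annotation the coding sequences of Hba-a1 and Hba-a2 are 426 bases long and differ at 1 base, and those of Hbb-bs and Hbb-bt are 441 bases long and differ at 1 base. For the sum of Hbb-b1 and Hbb-b2 the spread was 17.5%, against 22.4% for Hbb-b1 alone and 6.74% for Hbb-b2 alone, given as the coefficient of variation (CV, the SD as a percentage of the mean). The shares below use sums over the chains.

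Outside haemoglobin, 50 other red cell genes summed to 2.28%, 2.31% and 2.004% (mean 2.196% ± 0.167), and each had a mean of at least 1 FPKM. The antioxidant peroxiredoxin Prdx2 led them at 2559, 2141 and 2095 FPKM. Next came Car2, a carbonic anhydrase, at a mean of 1393 ± 175, and Alas2, the first enzyme of haem synthesis in red cell precursors, at 1235 ± 97.8. Blvrb, a biliverdin reductase, was at 977 ± 79.7, and Slc4a1, the anion exchanger of the red cell membrane, at 740.2 ± 69.4. Highest in replicate 1 were 31 of the 50 genes, or 12 in replicate 2 and 7 in replicate 3. Over all 11804 genes with a mean of at least 1 FPKM, 37.1% were highest in replicate 1, 32.9% in replicate 2 and 30% in replicate 3.

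Neutrophil transcripts came next, in 3 lists ordered by the stage at which the proteins are made. Together they held 7.04%, 7.21% and 7.44% of the signal (7.23% ± 0.201), a narrower spread than that of the red cell lists, which together held 20.04%, 17.0% and 15.9% (17.6% ± 2.15). The ratio of red cell to neutrophil signal was accordingly 2.85, 2.36 and 2.13.

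Primary granule genes, expressed first, took 0.371% ± 0.0305. Elane, encoding neutrophil elastase, was at 639.6, 701 and 625 FPKM, its relative Prtn3 (proteinase 3) at 677, 664 and 604, and Mpo (myeloperoxidase) at 443, 482 and 418. Srgn, the granule proteoglycan serglycin, had a mean of 279 ± 20.4, Ctsg (cathepsin G) 159 ± 19.1 and Ms4a3 88.9 ± 14.9. No gene of this group differed by as much as 1 log2 unit between libraries, and the replicates' ranges of Elane and Prtn3 overlapped. Elane and Prtn3 are neighbours, and the table gives them one joint position.

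Secondary and tertiary granule genes took 2.43% ± 0.0984. Camp, the cathelicidin precursor, was at 5265, 3581 and 4345 FPKM, the highest value again in replicate 1. Ngp, neutrophilic granule protein, was steadier at 3056, 2754 and 2856. Lyz2 (lysozyme) had a mean of 2226 ± 254, Lcn2 (lipocalin) 1677 ± 94.9, Retnlg 1284 ± 65.7 and Ltf (lactoferrin) 760.2 ± 49.4. Chil3, a chitinase-like protein, was among the least variable of all well expressed genes, at 683, 688 and 698.

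Late neutrophil genes took 4.42% ± 0.308, and S100a8 and S100a9, the 2 chains of calprotectin, made up nearly all of it. S100a9 was at 15380, 13310 and 17349 FPKM and S100a8 at 13131, 14570 and 14739, ranges that overlap. Far below them stood Alox5ap, which serves leukotriene synthesis, at 354 ± 7.86, Msrb1, a methionine sulfoxide reductase, at 238 ± 14.1, Ccl6 at 63.9 ± 7.56 and the selectin ligand Selplg at 54.9 ± 5.02. Without its leading member S100a9 the late neutrophil share would be 2.21%.

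The stretches upstream of these leading genes are shown because red cell and neutrophil genes are the main tissue-specific transcripts of the libraries. Each is the 250 bases before the RefSeq transcription start (GRCm38.p6, the assembly of mm10), 5′ to 3′ on the gene's strand, and capitals mark matches to the motifs searched. TATAA, the core of the TATA box, was searched on the sense strand. The others were searched on both strands: CCAAT (the CCAAT box), AGATAA (the core bound by GATA factors), CACCC (the core bound by Klf factors such as Klf1), AGGAAGT (a core of Ets factors such as Spi1) and GGGCGG (the GC box of Sp factors). Matches of the CACCC and GC box motifs can overlap each other.
Hbb-b1 (RefSeq Hbb-bs, chr7:103827929-103828178, minus strand): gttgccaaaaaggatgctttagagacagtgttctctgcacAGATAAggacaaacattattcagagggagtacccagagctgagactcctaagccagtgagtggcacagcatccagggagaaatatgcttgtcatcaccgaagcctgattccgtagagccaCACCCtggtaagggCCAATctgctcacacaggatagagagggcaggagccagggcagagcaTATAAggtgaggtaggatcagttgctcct
Hba-a1 (chr11:32283422-32283671, plus strand): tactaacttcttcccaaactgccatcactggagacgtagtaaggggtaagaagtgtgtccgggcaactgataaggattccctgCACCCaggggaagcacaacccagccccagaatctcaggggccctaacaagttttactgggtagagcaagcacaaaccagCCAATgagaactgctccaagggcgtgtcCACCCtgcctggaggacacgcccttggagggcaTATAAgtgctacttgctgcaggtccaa
Prtn3 (chr10:79879417-79879666, plus strand): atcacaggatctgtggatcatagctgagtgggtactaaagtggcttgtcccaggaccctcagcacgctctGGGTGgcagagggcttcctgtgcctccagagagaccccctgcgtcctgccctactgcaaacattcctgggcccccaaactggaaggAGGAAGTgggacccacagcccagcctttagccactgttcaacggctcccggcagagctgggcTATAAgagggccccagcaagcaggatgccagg
Elane (chr10:79886062-79886311, plus strand): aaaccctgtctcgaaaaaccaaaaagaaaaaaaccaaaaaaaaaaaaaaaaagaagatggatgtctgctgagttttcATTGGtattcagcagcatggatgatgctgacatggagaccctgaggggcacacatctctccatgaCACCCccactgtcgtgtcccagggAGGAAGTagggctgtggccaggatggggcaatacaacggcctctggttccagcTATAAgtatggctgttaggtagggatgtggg
S100a8 (chr3:90668821-90669070, plus strand): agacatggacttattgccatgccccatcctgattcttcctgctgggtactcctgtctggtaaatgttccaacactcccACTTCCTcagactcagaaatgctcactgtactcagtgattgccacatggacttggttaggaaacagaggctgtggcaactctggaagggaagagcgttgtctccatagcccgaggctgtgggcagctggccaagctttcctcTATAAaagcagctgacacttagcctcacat

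The 5 windows shown hold TATAA, beginning between 27 and 32 bases before the start. Over the lists TATAA was in 17.5% of red cell and 24.2% of granule windows, against 16.0% of all 32851 RefSeq windows of this length. Of the leading genes whose windows are not shown, Alas2 holds TATAA only 207 bases before the start and no CCAAT, and Camp holds neither TATAA nor AGGAAGT. Both globin windows hold CCAAT, 76 bases before the start of Hbb-b1 and 88 bases before that of Hba-a1, each with a CACCC. Prtn3 and Elane both hold AGGAAGT, 94 and 84 bases before the start, and S100a8 holds it 172 bases before the start on the opposite strand. Over the 2 granule lists, 14 of 33 matched windows held AGGAAGT (42.4%), against 0 of 40 over the 2 red cell lists and 7.69% of all windows. AGATAA was present in 22.5% of red cell windows and 21.2% of granule windows, against 9.99% of all, and CACCC in 75% and 72.7%, against 52.0%. CCAAT was in 45% and 54.5%, against 33.8%, and GGGCGG in 40% and 15.2%, against 32.7%. In the 9413 windows of genes with a mean of at least 1 FPKM, TATAA was in 8.30%, AGGAAGT in 7.90% and AGATAA in 5.81%. In the same windows CACCC was in 56.6%, CCAAT in 36.9% and GGGCGG in 60.0%. These are matches of letters and are no evidence of binding.

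Genes of bone cells ranked beside those of blood cells. The 26 osteoblast genes took 1.90%, 2.89% and 1.71% of the summed FPKM (2.16% ± 0.633), and their range overlapped that of the 50 red cell genes other than haemoglobin. Col1a1 and Col1a2 encode the chains of type I collagen, the main protein of bone matrix. Col1a1 was at 5238, 8233 and 4784 FPKM and Col1a2 at 3600, 5157 and 3003, ranks 7 and 15 of all genes by mean. Both were highest in replicate 2 and lowest in replicate 3.

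Sparc, a matrix glycoprotein that binds collagen and calcium, was at 1766, 1859 and 1342 FPKM. Bglap and Bglap2, which encode osteocalcin, the vitamin K-dependent protein of mineralising osteoblasts, were at 1191, 1523 and 1052 and at 565, 783 and 509, so both followed the order of the collagens. Their coding sequences differ at 4 of 285 bases, and their individual values are uncertain. Spp1 (osteopontin) had a mean of 522 ± 98.7, with its lowest value in replicate 1. In all, 19 of the 26 genes were highest in replicate 2, where the background share is 32.9%, 6 in replicate 1 and 1 in replicate 3.

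The upstream window of Bglap is shown as that of the leading osteoblast-restricted gene, with the same motifs and capitals as above. It holds CCAAT 90 bases and TATAA 27 bases before the start.
Bglap (chr3:88384467-88384716, minus strand): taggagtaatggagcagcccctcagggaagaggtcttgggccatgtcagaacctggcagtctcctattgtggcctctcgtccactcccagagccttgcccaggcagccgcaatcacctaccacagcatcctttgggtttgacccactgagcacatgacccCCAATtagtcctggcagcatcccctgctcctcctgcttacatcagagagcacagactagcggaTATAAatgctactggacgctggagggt

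The fibroblast, stromal and adipocyte lists were also highest in replicate 2, and the fibroblast list alone among them was lowest in replicate 3. Fibroblast and matrix genes took 0.132%, 0.175% and 0.113% (S100a6 and the proteoglycans Bgn and Dcn led, at means of 203, 198.4 and 183 FPKM), with 18 of 22 members of at least 1 FPKM highest in replicate 2. Stromal niche genes took 0.116%, 0.143% and 0.117%. Cxcl12, the chemokine that retains stem cells in marrow, led them at 313, 368 and 286 FPKM, and 16 of 21 members were highest in replicate 2. For both lists the background share of replicate 2 is 32.9%. Adipocyte genes took 0.0635%, 0.103% and 0.0811%. Fabp4, a fatty acid carrier, was at 140, 308 and 306 FPKM, so replicate 1 stood below the other two, while Adipoq (adiponectin) was at 39.5, 63.8 and 45.5. Car3, Cd36 and Lpl had means of 93.9 ± 32.5, 36.5 ± 10.8 and 29.95 ± 10.8. Of the 22 adipocyte genes, 6 were below 1 FPKM in all 3 libraries, among them Plin4 and Adig, with Lep and Cidea listed at 0.

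Osteocyte genes were low, at 0.0157% ± 0.00337: Dmp1, a matrix protein of newly embedded osteocytes, was at 38.2, 51.2 and 39.0 FPKM, and Sost, which encodes the Wnt antagonist sclerostin, at 33.5, 20.8 and 10.1. Chondrocyte genes were mostly low: 13 of 20 were below 1 FPKM in all 3 libraries, among them the cartilage genes Acan, Sox9 and Col10a1, and 5 had a mean of at least 1. The highest were Col11a1, which osteoblasts also express, at 73.5 ± 22.5 FPKM and Col2a1 at 24.2 ± 1.06. Osteoclast genes took 0.126% ± 0.0145, led by Acp5, the tartrate-resistant acid phosphatase, at 423, 484 and 492 FPKM and Ctsk, the collagen-degrading cathepsin K, at 158, 226 and 211.

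**Figure D2:**
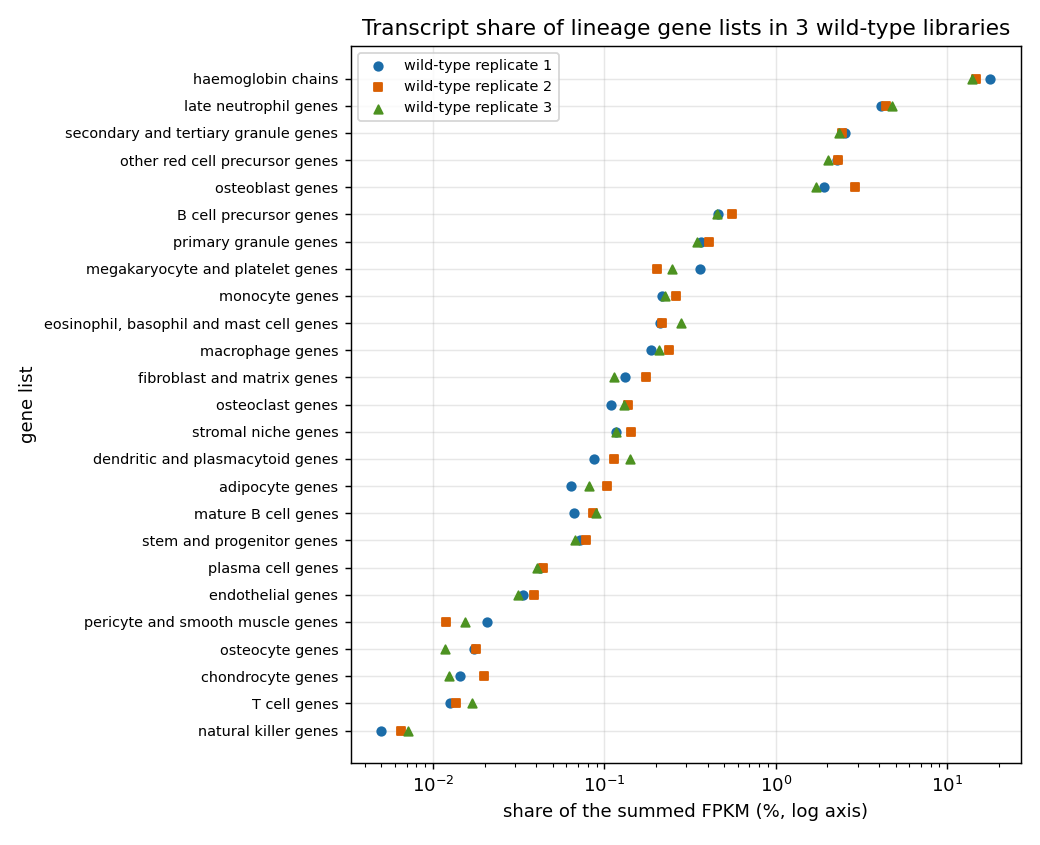
Share of the summed FPKM (percent, log axis) of 25 lineage gene lists, 1 point per wild-type replicate. Haemoglobin chains lie at 13.9% to 17.8% and natural killer genes below 0.01%, and the points of most lists lie close together on this scale.

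B lineage genes held 0.610% ± 0.0643, mostly through genes of precursors (0.488% ± 0.0578). Cd24a, a surface protein also made by red cell precursors, was at 1508, 1465 and 1076 FPKM and is 39.98% of that list's sum. Vpreb3, of the precursor receptor complex, was at 357, 427 and 385, and Cd79a and Cd79b, the signalling chains of the B cell receptor, had means of 241 ± 33.3 and 258 ± 47.7. Ly6d and the transcription factor Spib had means of 289 ± 60.5 and 100.5 ± 13.9. The list of mature B cells took 0.0804% ± 0.0121, with Cd37 at 174 ± 26.3 and Cd72 at 73.2 ± 9.79, and Cr2, a complement receptor of mature B cells, below 1 FPKM in all 3 libraries. The immunoglobulin genes Ighm and Igkc were not analysed here.

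T cell and natural killer genes together held 0.0205% ± 0.00322. Cd3d, Cd3e and Cd3g, of the T cell receptor complex, had means of 4.19 ± 1.65, 1.80 ± 0.561 and 3.82 ± 0.867 FPKM. Lat and Cd2 led the T cell list at 30.7 ± 7.57 and 13.9 ± 4.28, and Lat is also a gene of platelets and mast cells. In the natural killer list 6 of 14 genes, among them the cytotoxic genes Prf1 and Gzmb, were below 1 FPKM in all 3 libraries. Its leading member Ccl5, at 15.2, 22.8 and 29.1 FPKM, is 52.1% of the list's sum. Gzma, also a cytotoxic gene, was at 2.97, 3.55 and 3.67. The plasma cell list held 0.0420% ± 0.00169, led by Slpi, Mzb1 and Xbp1 at 135 ± 12.3, 70.2 ± 13.3 and 60.3 ± 14.9. Slpi alone is 46.4% of that list's sum, and without Slpi the share would be 0.0225%. Irf4 and Sdc1 followed at 12.9 ± 1.55 and 9.44 ± 0.286. Igj was at 1.36 ± 0.682 FPKM, Prdm1 was below 1 FPKM in all 3 libraries, and Tnfrsf17 was listed at 0.

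Monocyte and macrophage genes held 0.235% ± 0.0226 and 0.211% ± 0.0269. Psap, a lysosomal protein made by many cells, led the monocyte list at 576 ± 59.3, before Ly6c2, a marker of classical monocytes, at 290.3 ± 20.2. Apoe led the macrophage list at 485 ± 47.6. The complement genes C1qa, C1qb and C1qc were at 131 ± 5.42, 129 ± 1.32 and 149 ± 5.37, and the haem-degrading enzyme Hmox1 at 125, 170.2 and 115 FPKM. In each of the 2 lists 15 of 22 members of at least 1 FPKM were highest in replicate 2, where the background share is 32.9%.

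The eosinophil, basophil and mast cell list held 0.234% ± 0.0379, of which Prg2, the eosinophil major basic protein, is 64.5%, at 981, 896 and 1267 FPKM. Its eosinophil ribonucleases Ear1, Ear6 and Ear2 were between 93.5 and 167, and the basophil proteases Prss34 and Mcpt8 at 68.2 ± 12.3 and 35.1 ± 5.63. The mast cell proteases Cma1, Tpsb2 and Mcpt4 were below 1 FPKM in all 3 libraries. Cpa3 and Ms4a2, of the same list, were above 1 in each, at 5.52, 4.74 and 5.34 and at 1.53, 1.46 and 1.43. The dendritic and plasmacytoid list rested on antigen presentation: Cd74 was at 284, 388 and 499.8 FPKM and H2-Ab1 at 90.6, 97.2 and 134. Cd74 alone is 49.5% of that list's sum and its 3 highest members are 76.0%. Which cells carry these transcripts cannot be told from bulk values, so the list's share is no measure of dendritic cells. Xcr1 and Clec9a, which mark cross-presenting dendritic cells, were below 1.

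Megakaryocyte and platelet genes showed the widest relative spread of any lineage list, at 0.361%, 0.203% and 0.247% (0.270% ± 0.0812). All 21 genes of the list had a mean of at least 1 FPKM, and all 21 were highest in replicate 1, where the background share is 37.1%. Pf4 and Ppbp, chemokines stored in platelet granules, were at 797, 441 and 652 FPKM and at 785, 376 and 407. Gp9, a subunit of the von Willebrand factor receptor, was at 203, 83.5 and 114, and Itga2b, the platelet integrin, at 109.6, 63.7 and 86.5. Thbs1 and the platelet tubulin Tubb1 were at 106, 75.6 and 57.6 and at 103, 37.8 and 60.7. In the list of pericyte and smooth muscle genes Myl9 followed the same order, at 111, 44.7 and 80.5 FPKM, and it holds 70.7% of that list, whose contractile genes Acta2 and Tagln were at 3.07 ± 0.613 and 3.93 ± 0.359. Platelets also express Myl9.

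Stem and progenitor genes held 0.0725% ± 0.00549 and endothelial genes 0.0347% ± 0.00389. Lmo2 and Spi1, transcription factors shared with red cell and myeloid precursors, had means of 200.3 ± 22.4 and 139 ± 5.46 and made up most of the former. Of the 21 members of the stem and progenitor list only 2, Hlf and Mecom, were below 1 FPKM in all 3 libraries. Endothelial members were low and even, with Plvap at 41.0, 44.1 and 40.8, Pecam1 at 21.8 ± 0.567 and Cdh5 (VE-cadherin) at 9.79 ± 0.75 FPKM.

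In the order of the 25 lists by mean share, the first 3 steps down (haemoglobin, late neutrophil, secondary and tertiary granule, other red cell genes) were without overlap between libraries. The osteoblast list overlapped the red cell genes above it. From primary granule to macrophage genes, from fibroblast to stem and progenitor genes, and from pericyte through osteocyte and chondrocyte to T cell genes, the ranges of neighbouring lists overlapped. Within libraries, primary granule genes still stood above megakaryocyte genes and dendritic genes above adipocyte genes in all 3, while the other neighbours in these stretches were in the order of their means in 1 or 2 of the 3 libraries. All 25 lists together held 29.4% ± 1.96. Muscle, nerve, epithelial, liver and pancreas lists, read for tissue next to the bone, together held 0.0171% ± 0.00067. Mylpf, a light chain of fast muscle myosin, was at 16.6 to 20.6 FPKM. Of the 16 muscle genes, 9 were below 1 FPKM in all 3 libraries. Cela1, a pancreatic elastase gene, was at 41.0 to 45.2 and is 97.2% of the liver and pancreas list. In that list 6 of 10 genes were listed at 0, among them Prss1, Ins2, Amy2a5, Try4 and the liver gene Alb. The keratins Krt5 and Krt14 were also listed at 0.

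Lists of general cell functions held a larger part of the signal than most lineages. The 79 cytosolic ribosomal protein genes took 19.3%, 19.8% and 22.3% (20.5% ± 1.59), and 60 of the 100 most abundant genes belong to them. Rplp1, an acidic stalk protein, led at 7352, 5920 and 7032 FPKM, followed by Rpl41 at 6223, 4814 and 6785 and Rps12 at 4051, 4181 and 5969. Of 78 ribosomal genes with a mean of at least 1 FPKM, 59 were highest in replicate 3, where the background share is 30%. Among genes with transcripts shorter than 600 bases, the median difference from the gene's mean was -0.05, -0.10 and 0.11 log2 units in replicates 1, 2 and 3. For transcripts of 4000 bases or more it was 0.04, 0.01 and -0.05. The part of transcript length in the ribosomal and osteoblast differences was not tested. Rpl26 was listed below 0.02 FPKM in every library, while Gm15772, listed at the same position, was at 2402 ± 270.4 FPKM, rank 36. Both were named after their values were seen. Gm15772, Rps27rt, Rpl34-ps1 and Gm12191 share positions with ribosomal genes but are not in the list. The last 3 had means of 3549, 2096 and 1210 FPKM. Rps27 entered the list's sum at 5.04, 2049 and 24.7 FPKM. Single values of ribosomal genes are thus uncertain, and the list's share is affected too.

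Nuclear genes of the respiratory chain held 2.77% ± 0.137 and translation factors 1.97% ± 0.0282. Cell division genes held 1.10%, 1.07% and 1.11% (1.09% ± 0.0189), among the narrowest spreads of any list, led by the histone variant H2afz at 835 ± 55.4, Hmgn2 at 639 ± 23.3 and Stmn1 at 545 ± 61.4, with the mitotic ubiquitin enzyme Ube2c at 498 ± 18.6. Clustered histone genes, whose main transcripts lack poly(A) tails, held 0.0504% ± 0.00646, and 23 of 68 were below 1 FPKM in all 3 libraries. Ferritin and iron genes held 0.879% ± 0.0106, almost all of it Ftl1 at 3025, 2757 and 3285 and Fth1 at 3079, 2989 and 2736 FPKM.

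Heat shock and chaperone genes held 0.485%, 0.600% and 0.380% (0.488% ± 0.1097). Of 19 members of at least 1 FPKM, 16 were highest in replicate 2, where the background share is 32.9%. Hspa8, the constitutive cytosolic chaperone, was at 1286, 1474 and 632 FPKM, so replicate 3 stood apart. Hspa5, the chaperone of the endoplasmic reticulum, was at 234, 297 and 149. Hsp90ab1 differed less, at 522, 587 and 567, and the stress-inducible Hspa1a was below 1 FPKM in all 3 libraries. Its near-identical copy Hspa1b was at 1.01, 1.90 and 0.425, and single values of the 2 genes are uncertain. Hspb1 and Hsph1, of the same list, were at 5.46, 15.4 and 3.88 and at 34.4, 43.3 and 14.5. Immediate early genes, which respond quickly to stimuli, held 0.0597%, 0.0732% and 0.0668%, with Btg2 at 78.1 ± 7.89 and Klf2 at 64.2 ± 7.18, and Fos, named outside the rule, at 3.06, 3.26 and 4.21. The chaperone, osteoblast and fibroblast lists were all highest in replicate 2, and whether they share a source was not tested.

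In several lists of antigen presentation and mature lymphocytes most members were highest in replicate 3, where the background share is 30%. Class I presentation genes held 0.245%, 0.311% and 0.301%, and 11 of 13 were highest in replicate 3, such as H2-D1 at 396, 432 and 475 FPKM, although the list's share and its most abundant member, B2m (888 FPKM), were highest in replicate 2. The B cell precursor list did not share this order, with 0.457%, 0.555% and 0.452% and 11 of 30 members highest in replicate 3. Among members with a mean of at least 1 FPKM, 12 of 14 T cell genes, 12 of 17 dendritic genes, 14 of 21 mature B cell genes and 18 of 24 interferon-stimulated genes were highest in replicate 3. Isg15 and Ifi27l2a, the leading interferon-stimulated genes, were at 153 ± 8.86 and 86.4 ± 13.98.

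**Figure D3:**
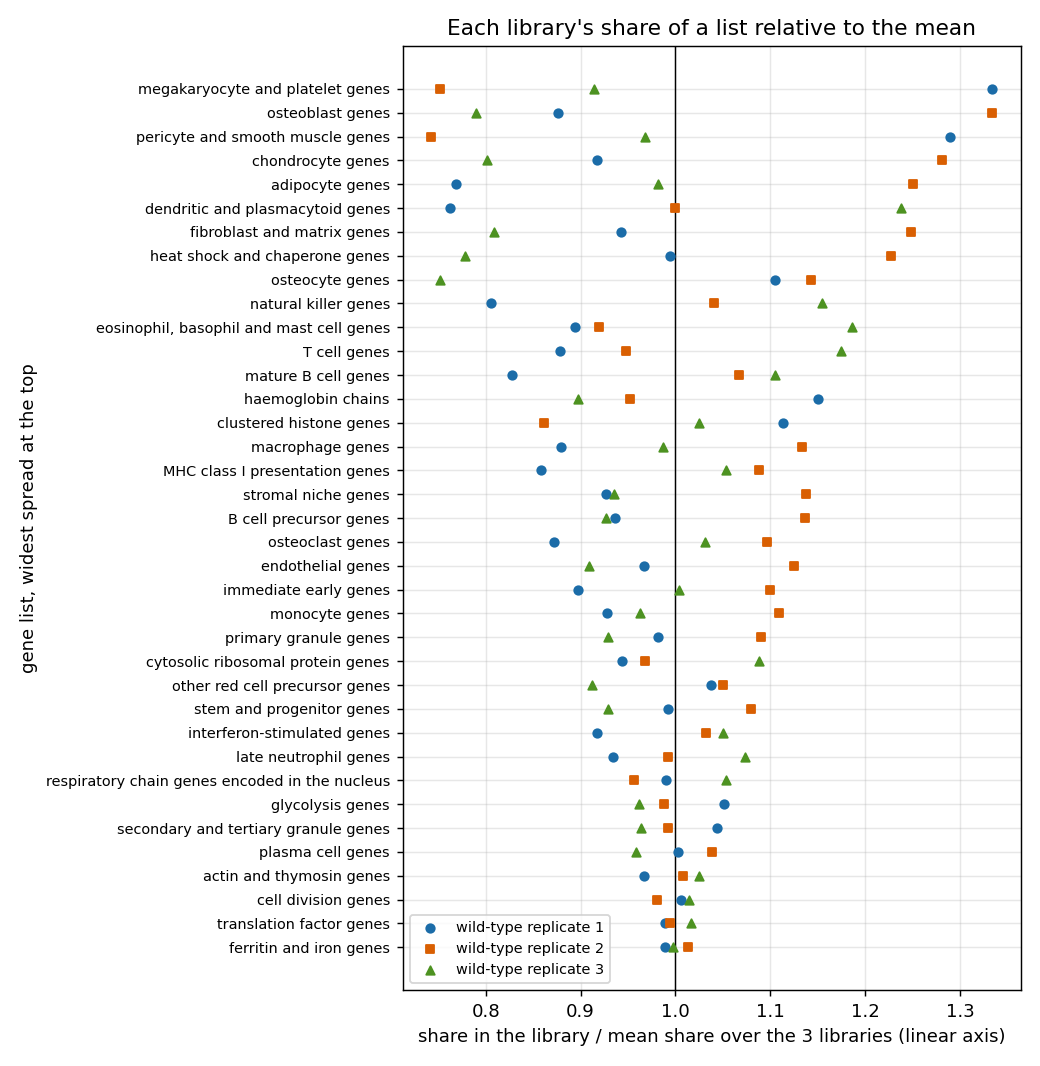
Share of each lineage and function list in a library divided by its mean share over the 3 wild-type libraries (linear axis), widest spread at the top, with a line at 1. Megakaryocyte genes lie at 1.33 in replicate 1 and osteoblast genes at 1.33 in replicate 2, while ferritin, translation factor and cell division genes lie within 0.03 of 1.

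Gene by gene, the replicates were close. Among the 11804 genes with a mean of at least 1 FPKM the median CV was 10.8%, and 9859 genes (83.5%) had a CV under 20%. The median CV was 33.4% for means of 0.1 to 1 FPKM, 16.3% from 1 to 3 FPKM, 11.1% from 3 to 10, and 9.10% to 10.2% in the bins from 30 FPKM upward. Pearson's r of log2(FPKM + 1) across these genes was 0.985 to 0.987 for the 3 pairs of libraries, where genes are not independent replicates. A gap of at least 1 log2 unit between the highest and the lowest library was found for 188 genes (1.59%), and a gap of at least 2 units for 21. With replicate 1, 2 or 3 left out in turn, the number with a gap of at least 1 unit was 74, 98 and 97. With a pseudocount of 0.1 or 5 FPKM in place of 1, it was 396 or 50.

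The steadiest of the genes with a mean of at least 50 FPKM were Snx17, a sorting nexin, at 52.3, 52.1 and 52.1, and Smc4, a condensin subunit, at 70.6, 70.6 and 71.0. Ost4, Tcp1, Gpi1, C1qb, Usmg5 and Chil3 were also among the 10 steadiest, each with a CV of at most 1.11%. This order describes these 3 libraries only.

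Genes often used as references for quantitative PCR had a median CV of 6.68% over 19 genes, against 10.8% for all genes and 9.13% for the 692 genes with a mean between 100 and 1000 FPKM, the range that holds the list's median level of 167 FPKM. Hprt was at 71.4, 71.7 and 73.9 FPKM, Polr2a at 34.3, 32.9 and 34.2, Ipo8 at 5.38, 5.17 and 5.33, Rpl4 at 1311, 1248 and 1276 and Eef1a1 at 3506, 3377 and 3483. Sdha, Pgk1 and Ywhaz had means of 69.2 ± 2.25, 145 ± 5.59 and 100.1 ± 4.67, Gusb 34.7 ± 2.41, Gapdh 347 ± 26.5 and Actb 1709 ± 114. Ppia, Rplp0 and Rpl13a had means of 1650.4 ± 129, 2294 ± 267 and 1517 ± 183. B2m, Tfrc and Tbp were at 793 ± 91.0, 167 ± 22.1 and 12.7 ± 2.15, and Tfrc, the transferrin receptor, is also one of the red cell genes.

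Of the 15 genes with the largest SD of log2(FPKM + 1) at a mean of at least 5 FPKM, 10 share their position in the table with another gene, and 12 either do so or have at least 20% of their 50-base words in another gene's transcripts. Of all 11804 genes compared, 2031 share their position. Of the 188 with a gap of at least 1 log2 unit between libraries, 138 have a position of their own and 129 have under 1% of their words in another gene. The reads were 50 bases long. Atp6v0c, a proton pump subunit, was at 0.096, 351 and 142 FPKM, and its pseudogene Atp6v0c-ps2 at 327, 0.443 and 192. Their sum was 327, 352 and 334, with a CV of 3.78% against 107% and 94.7% for the separate values.

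Rps27 and Rps27rt are the most abundant such pair. Rps27 was at 5.04, 2049 and 24.7 FPKM and Rps27rt at 3686, 2047 and 4914, while their sum was 3691, 4096 and 4939. Rps27rt reached rank 16 of all genes by mean. The table puts both at chr3:90212666-90213648, whereas GENCODE vM21 has Rps27 at chr3:90212522-90213651 and Rps27rt at chr9:114982366-114982739, both on the minus strand. Their 252-base coding sequences, shown because no 50-base word in them tells the genes apart, are identical, with 203 of 203 50-base words shared.
Rps27 and Rps27rt, coding sequence: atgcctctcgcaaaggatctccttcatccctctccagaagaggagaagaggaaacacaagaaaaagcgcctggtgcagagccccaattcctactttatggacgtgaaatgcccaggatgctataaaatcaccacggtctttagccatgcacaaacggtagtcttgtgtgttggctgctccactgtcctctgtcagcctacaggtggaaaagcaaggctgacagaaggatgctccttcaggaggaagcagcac

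Several other pairs, but not all, behaved alike. Ndufs5, a subunit of respiratory complex I, was at 0.091, 50.6 and 33.8 FPKM and its copy BC002163 at 37.6, 0.350 and 12.1, with a sum of 37.7, 50.96 and 45.96. Amd1 and Amd2, the polyamine enzyme genes, were split as 16.7, 0.132 and 0.121 against 39.6, 57.1 and 43.7. Eno1, the glycolytic enolase, was at 2.88, 27.3 and 16.4 and Eno1b at 118, 76.8 and 94.4, so that their sum had a CV of 7.38%. In contrast, Bglap held a steady 67.8%, 66.0% and 67.4% of the sum of Bglap and Bglap2. That sum had a CV of 20.6%, against 19.3% and 23.4% for the separate values. The sum of Hbb-b1 and Hbb-b2 likewise had a wider CV (17.5%) than Hbb-b2 alone (6.74%). Over all genes with a mean of at least 1 FPKM, the median CV was 19.5% for 134 genes with at least 50% of their 50-base words in another gene, and 15.7% of them had a gap of at least 1 log2 unit. For 10717 genes with under 1% shared words the median CV was 10.6% and that share was 1.20%.

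**Figure D4:**
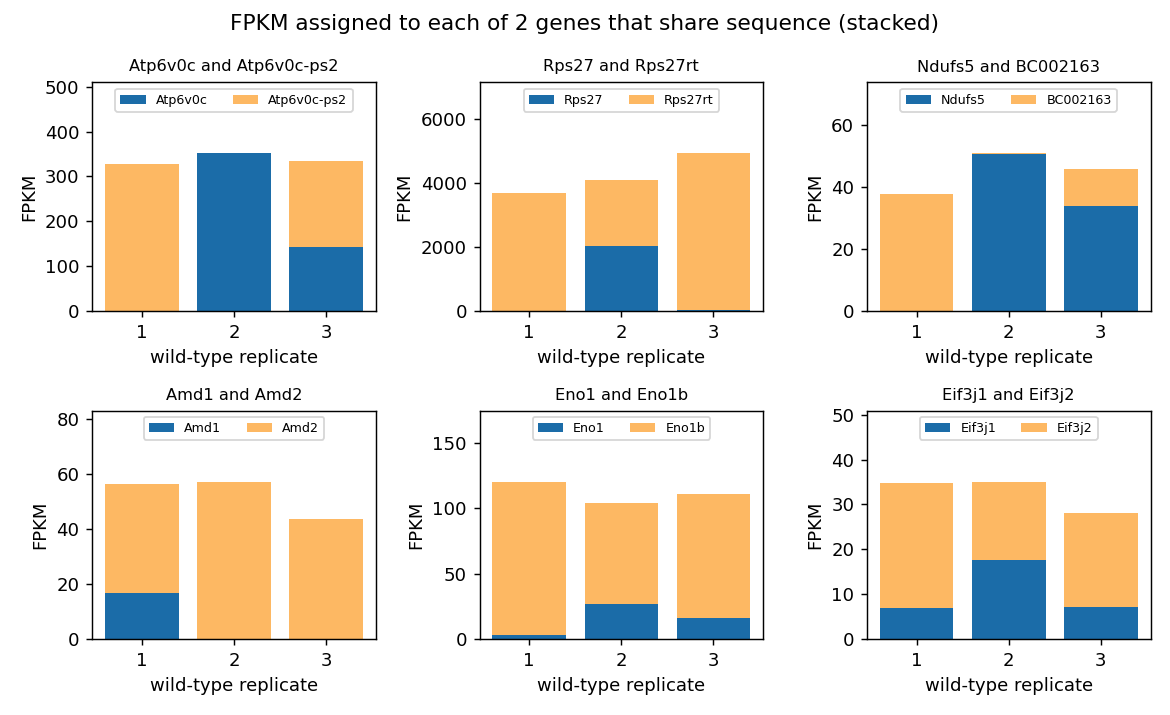
FPKM (linear axes from 0) assigned to each gene of 6 pairs that share sequence, stacked, in wild-type replicates 1 to 3. The division between the genes changes from library to library, while the height of the stack varies less, from 327 to 352 for Atp6v0c and Atp6v0c-ps2.

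**Figure D5:**
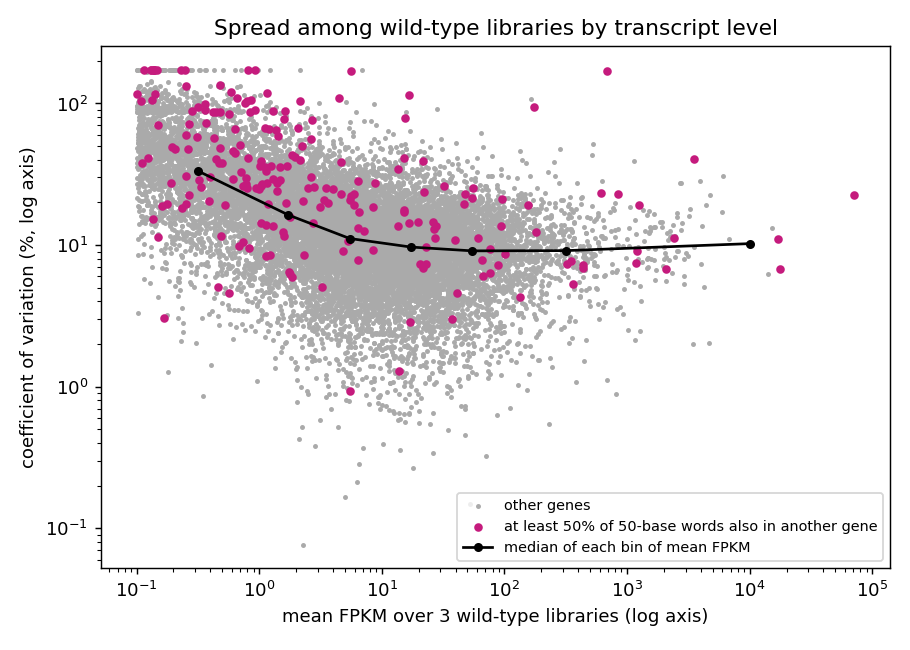
CV (percent, log axis) against mean FPKM (log axis) for 14907 genes with a mean of at least 0.1 FPKM, with the median of each bin as black points placed at the bin's middle on the log axis (the open top bin taken to end at 100000). Coloured points are genes with at least 50% of their 50-base words in another gene, and the medians fall from 33.4% to about 9% and then stay level.

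The other genes among the 15 were of several kinds. Xist was at 0.015, 24.4 and 22.7 FPKM, and the Y-linked Eif2s3y at 20.7 in replicate 1 and listed at 0 in the other libraries. Ddx3y, Kdm5d and Uty followed Eif2s3y at 6.43, 2.12 and 1.91 in replicate 1 and at most 0.0137 elsewhere, and Tsix followed Xist. Y-linked transcripts were thus read in replicate 1 and Xist in replicates 2 and 3. Replicate 1 was also the library with the highest haemoglobin and megakaryocyte shares, and in 3 libraries these patterns cannot be told apart from the sex pattern. Ear7, an eosinophil ribonuclease, was at 9.45, 0.003 and 9.11 and H2-Q8, a class I gene, at 1.26, 8.56 and 11.8, both at positions shared with another gene. Snora81, a small nucleolar RNA, is named here outside the rule, at 8.81, 0 and 17.2, and the histone gene Hist1h1a was at 7.01, 1.27 and 8.002.

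Chromobox genes of Polycomb repressive complex 1, the family of the series' target, were low in wild-type marrow. Cbx6 was highest at 14.1, 15.5 and 13.3 FPKM, before Cbx7 at 7.33, 8.86 and 11.97 and Cbx8 at 6.80, 5.02 and 4.99. Cbx2 was lowest at 2.90, 3.83 and 2.75, rank 9423 by mean. Of these 4 genes, Cbx6 was highest and Cbx2 lowest in every library, and the order of Cbx7 and Cbx8 was the same in every library.

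Weighting each gene by transcript length, which approximates shares of reads in place of shares of molecules, changed the balance between blood and bone. Haemoglobin chains then took 6.49% ± 0.894 and osteoblast genes 6.04% ± 1.70, late neutrophil genes 1.57% ± 0.122 and ribosomal protein genes 11.1% ± 1.13. The length used was the median over a gene's reference transcripts. Col1a1, with a median of 5930 bases, then ranked 2 with 3.35% ± 1.05, behind Hbb-b1 (628 bases) with 4.16% ± 0.846. Col1a2 ranked 3 with 1.95% ± 0.556. Rps20, rank 13 by FPKM, ranked 4 with 1.40% ± 0.218 through a median length of 3706 bases, so single ranks depend on the annotated lengths.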

How the data were processed

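Only the 3 wild-type columns of the table were read. The authors deposited one table of FPKM values per gene, and read counts were not used here. Per the labels' protocols, libraries were stranded, poly(A)-based and read as 50-base single ends. Per the submitters' processing notes, the build was mm10 and the tools were TopHat2 2.1.0 and Cufflinks 2.2.1, beside FastQC 0.11.5. None of their settings, annotation or strandedness is given in the sources used here, so overlapping, antisense and near-identical genes are uncertain. Values with a status other than OK stood at 3, 0 and 2 genes of replicates 1, 2 and 3. The deposited lower limit differed from the FPKM in 26, 21 and 24 genes of replicates 1, 2 and 3 (for Hba-a1 it was 8806, 4973 and 5346) and was left aside.

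Ranks, shares of summed FPKM, SDs and CVs were computed with Python 3.11.15, numpy 2.4.6 and pandas 2.3.3. Only the median CV and the count of gaps of at least 1 log2 unit were tested on simulated data. Spread used genes with a mean of at least 1 FPKM and log2(FPKM + 1). Transcript lengths and 50-base words came from GENCODE vM21, and promoters from RefSeq, which matched 40 of 59 red cell and 33 of 40 granule genes. Of 22838 genes, 22654 had a reference length. Figures were drawn with matplotlib 3.10.9.

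The 45 lists and the members were chosen with earlier results of these data known. Named are the 30 most abundant genes, the 6 highest of each list and members below 1 FPKM where absence is the point, the 15 most variable and 10 least variable genes, all reference, Cbx and sex-linked genes, and abundant copy pairs. Cd3e, Cd3g, Mcpt8, Cpa3, Ms4a2, Acta2, Cdh5, Hspa1b, Hspb1, Hsph1, Fos, Rpl26, Gm15772, Rpl34-ps1, Gm12191 and Snora81 were named after their values were seen. Other unnamed models were left out, and 4 genes that the rule names are not reported here. Mitochondrially encoded genes were not analysed here. Alternatives were other denominators, length weighting, list shares without the leading gene, other floors, pseudocounts and scalings, and each library left out.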

Additional observations from a re-analysis of the deposited data

How the results depend on the processing

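Shares depend on how they are formed. With haemoglobin genes out of the denominator, the shares became 2.60% (other red cell), 0.439% (primary granule), 2.88% (secondary and tertiary granule), 5.22% (late neutrophil), 0.577% (B cell precursor) and 24.2% (ribosomal protein), and that of the 100 most abundant genes 41.4%. With FPKM multiplied by transcript length they became 6.49% (haemoglobin), 3.07% (other red cell), 0.333% (primary granule), 1.78% (secondary and tertiary granule), 1.57% (late neutrophil), 6.04% (osteoblast) and 11.1% (ribosomal protein), and that of the 100 most abundant genes 32.2%. Without its highest member the share was 5.18% for haemoglobin, 1.87% for other red cell, 0.276% for primary granule, 1.80% for secondary and tertiary granule, 2.21% for late neutrophil, 0.293% for B cell precursor, 0.180% for megakaryocyte and 1.28% for osteoblast genes. With 1 library left out, the 41 list shares were 0.833 to 1.13 times the reported ones. The count of genes with a gap of at least 1 log2 unit was 96 with a filter of 5 FPKM, 396 with a pseudocount of 0.1, 50 with a pseudocount of 5, and 74 to 98 with 1 library left out, when only 2 libraries are compared. It was 183 with values rescaled by the median of ratios. No paired analysis was possible because only the wild-type group is described. With 3 libraries an SD is itself imprecise, read numbers are unknown, and values under 1 FPKM carry a median CV of 33.4%.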
